A study of Mus musculus with 14 samples.

Results

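The libraries described here are the 2 of follicular B cells lacking both RelB and c-Rel (dbko, labelled relb-/-crel-/-) and the 2 of wild-type cells (wt) that had been cultured with BAFF for 6h, 4 of the 14 libraries of the series, and they were chosen by their titles alone. Follicular B cells are mature B cells that circulate through the follicles of spleen and lymph nodes. Per the labels they came from spleens of C57BL/6 mice, were separated with a bead kit for marginal zone and follicular B cells, and were kept in RPMI-1640 medium with 50 ng per ml of BAFF in every group. Beside them stand 2 libraries at 6h of cells that lack c-Rel alone (cko, labelled crel-/-), and 2 each of wt and dbko at 0h. Every group held 2 libraries, n = 2, with replicate 1 run in sequencing lane 7 and replicate 2 in lane 8. Whether replicate 1 and 2 are different mice is not stated, so a p-value measures only the spread between these libraries. Which part of Rel or Relb the mutations remove, and in which cells of the mouse, the labels used here do not tell. Each library holds the RNA of many cells, so fewer cells of a type and less RNA per cell cannot be told apart.

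BAFF, a cytokine of the TNF family, keeps mature B cells alive. Its receptor BAFF-R releases the kinase NIK from a complex of TRAF and cIAP proteins, and NIK with IKK-alpha leads to the trimming of the Nfkb2 product, which then enters the nucleus with RelB. In the other branch of NF-kB signalling the IkB proteins hold c-Rel, RelA and their partner from Nfkb1 in the cytoplasm until they are degraded. Many IkB genes, Nfkb2, Relb and Rel are themselves NF-kB targets, and in B cells c-Rel is known for driving survival genes such as Bcl2l1 and the growth that precedes division.

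The 4 libraries held 10548983 to 11859709 gene counts, and 15739 to 16490 genes were counted at least once. Levels are given as CPM, counts scaled to library size by edgeR, always replicate 1 first. Differences are log2 values ± SE, dbko minus wt unless another pair is named, from the edgeR model of all 14 libraries. Calls were made at an adjusted p below 0.05, with the adjustment over all 12630 genes tested. The pair of dbko libraries differed far more than the pair of wt libraries. Counting noise alone would give a chi-square of about 1 per gene between replicates, and the value was 35.5 in dbko and 4.76 in wt. Among genes with a mean level of at least 20 CPM, 271 of 7214 differed at least 2-fold between the dbko libraries (CPM + 0.5), against 0 of 6957 between the wt libraries. Reads in no feature made up 11.5 and 9.67% of the tally in wt and 8.48 and 6.22% in dbko. Mitochondrial genes took 1.62 and 1.58% of the counts in wt and 2.39 and 1.62% in dbko. What these shares have to do with the differences below was not tested.

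The knocked-out genes matched the labels. Rel (ENSMUSG00000020275, chromosome 11, 23736847 to 23770970, minus strand, GRCm38), which encodes c-Rel, stood at 672 and 683 CPM in wt and 53.9 and 61.4 CPM in dbko, or -3.56 ± 0.15 on the log2 scale (adjusted p = 2.84e-08). In cko it stood at 111 and 95.3 CPM. Relb (ENSMUSG00000002983, chromosome 7, 19606217 to 19629438, minus strand) was counted at 149.5 and 164 CPM in wt and 159 and 172 CPM in cko, and at 67.8 and 88.4 CPM in dbko, which is -1.01 ± 0.14 from wt (adjusted p = 0.000401). The dbko libraries lay below both wt libraries for both genes, and RNA of both was still counted. The cells were B cells by their markers. Ms4a1, Cd79a, Cd79b and Cd22, which encode B cell surface proteins, summed to 3346 and 3345 CPM in wt and 4959 and 4349 CPM in dbko. Transcripts of the T cell receptor complex (Cd3e, Cd3d, Cd3g, Trbc1 and Trbc2) summed to 0.971 and 1.17 CPM in dbko and 0.366 and 0.085 CPM in wt. The whole list of 18 T cell markers summed to more, at 294 and 271 CPM in dbko and 135 and 130 CPM in wt. Of its 9 tested members 2 were called higher in dbko and 0 lower, beside 15.2% and 11.5% of all genes.

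Without RelB and c-Rel, 1450 genes (11.5%) were lower at 6h than in wt and 1920 (15.2%) were higher, 3370 of 12630 in all (26.7%). The median of all genes tested was 0.05. At least 2-fold differences were more often rises, with 1009 genes (7.99%) up and 383 (3.03%) down. All but 1 of the called genes had both dbko libraries on the same side of both wt libraries, beside 34.4% of all genes with both dbko libraries above and 29.4% with both below. The sizes depended on the replicate. Each of the 3370 called genes had the same sign in lane 7 and in lane 8. That follows wherever both dbko libraries lie on the same side of both wt libraries, so it adds no support. When each of the 4 libraries was left out in turn, 538 of the lower genes (4.26%) and 537 of the higher genes (4.25%) stayed called throughout. The count of called genes was 2170 without dbko replicate 1 and 4210 without dbko replicate 2, 1494 without wt replicate 1 and 1296 without wt replicate 2. Differences called for single genes below held with each library left out unless the adjusted p without a library is given. Differences at 0h, and those of cko from wt, were not refitted with a library left out. With dbko replicate 1 left out at both 0h and 6h, an alternative chosen after the replicates were seen to differ, 16.2% of genes were called higher and 13.5% lower. That fit takes the lone dbko library to vary like the other groups.

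**Figure D1:**
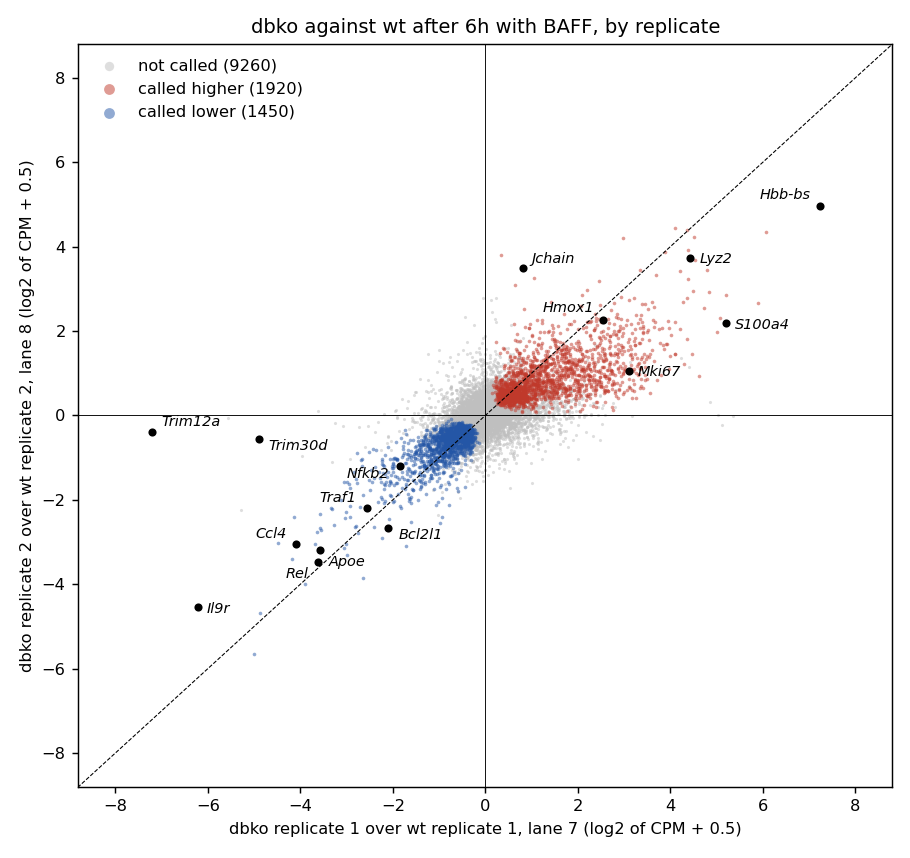
Each point is a gene; the x axis gives dbko replicate 1 over wt replicate 1 (lane 7) and the y axis dbko replicate 2 over wt replicate 2 (lane 8), as log2 of CPM + 0.5, with called genes coloured and the dashed line marking equal values. The called genes, 1920 higher and 1450 lower, share their sign in both lanes, which follows wherever the groups do not overlap. Mki67, S100a4, Trim12a, Trim30d and Jchain lie far from the line.

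Of the 5 NF-kB subunit genes 3 were lower and 0 higher, and 2 of those lower were the deleted Rel and Relb. Nfkb2, the remaining one, whose product partners RelB, stood at 547 and 533 CPM in wt and 153 and 233 CPM in dbko (-1.49 ± 0.16, adjusted p = 7.14e-05). In cko it stood at 523 and 489 CPM, and the difference of dbko from cko was -1.39 ± 0.16 (adjusted p = 0.000323). The dbko libraries were below every wt and cko library. Rela, encoding the subunit of the other NF-kB branch, stood at 198 and 211 CPM in wt and 125 and 198 CPM in dbko and was not called (-0.34 ± 0.17, adjusted p = 0.164). Nfkb1, whose product pairs with RelA and c-Rel, stood at 650.1 and 679.8 CPM and 481 and 677 CPM and was not called (-0.20 ± 0.15, adjusted p = 0.358). In both, replicate 1 of dbko was below wt and replicate 2 stood near the wt level.

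Inhibitors of NF-kB, which its own subunits induce, were lower in most cases. Of 8 genes for IkB proteins, A20 and its partner, 5 were lower and 0 higher, with a median of -0.82. Nfkbid, encoding the nuclear IkB protein IkBNS, stood at 911 and 1129 CPM in wt and 104 and 281 CPM in dbko (-2.41 ± 0.37, adjusted p = 0.00151). Nfkbiz, encoding the nuclear protein IkB-zeta, stood at 209 and 266 CPM in wt and 49.8 and 90.4 CPM in dbko (-1.76 ± 0.24, adjusted p = 0.000564). Both dbko libraries were far below wt for both genes, and replicate 1 was the lower. Tnfaip3, encoding the ubiquitin-editing inhibitor A20, stood at 382 and 431 CPM in wt and 97.6 and 158 CPM in dbko (-1.67 ± 0.28, adjusted p = 0.00173). Nfkbia, encoding IkB-alpha, stood at 339 and 385 CPM in wt and 119 and 207 CPM in dbko (-1.15 ± 0.21, adjusted p = 0.00207). Again the groups did not overlap. Nfkbie, encoding IkB-epsilon, was lower by less (-0.48 ± 0.14), and its adjusted p of 0.0206 became 0.162, 0.105 and 0.097 with dbko replicate 1, wt replicate 1 or wt replicate 2 left out. For the remaining 3 the groups overlapped. Bcl3, a nuclear IkB protein, stood at 68.0 and 71.1 CPM in wt and 28.8 and 73.9 CPM in dbko. Nfkbib, encoding IkB-beta, stood at 67.9 and 65.1 CPM and 37.9 and 66.3 CPM, and Tnip1, a partner of A20, at 96.9 and 102 CPM and 86.4 and 115 CPM. None of the 8 was called between dbko and cko, where 13.4% of all genes were called.

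Adaptors and ubiquitin ligases that sit under BAFF-R followed. Of 12 genes for TRAF proteins, cIAPs, NIK and the IKK complex 5 were lower and 1 was higher. Traf1, an adaptor that is itself an NF-kB target, stood at 242 and 249.8 CPM in wt and 40.9 and 54.6 CPM in dbko (-2.37 ± 0.14, adjusted p = 5.99e-07). In cko it stood between the other genotypes, at 160.2 and 153 CPM, and the difference of dbko from cko was -1.72 ± 0.13 (adjusted p = 1.27e-05). Birc3, encoding a cIAP that marks NIK for destruction, stood at 390.1 and 383 CPM in wt and 176 and 216 CPM in dbko (-0.98 ± 0.13, adjusted p = 0.000356). Birc2, encoding the other cIAP, stood at 153 and 158 CPM in wt and 83.4 and 84.3 CPM in dbko (-0.89 ± 0.13, adjusted p = 0.000593). Both cIAP genes had close replicates that did not overlap with wt. Birc3 stood at 429.9 and 399.9 CPM in cko, and dbko differed from cko by -1.08 ± 0.13 (adjusted p = 0.000453). The other members called were, with Chuk and Traf5 named after their values were seen, Traf2 (adjusted p of 0.064, 0.0668 and 0.0511 with dbko replicate 1, wt replicate 1 or wt replicate 2 left out) and Chuk, encoding IKK-alpha (0.0501, 0.0676 and 0.0554 with dbko replicate 2, wt replicate 1 or wt replicate 2 left out), both lower, and Traf5 (0.0504, 0.107 and 0.059 with dbko replicate 2, wt replicate 1 or wt replicate 2 left out), higher. Map3k14, encoding NIK, stood at 78.4 and 80.3 CPM in wt and 89.6 and 93.0 CPM in dbko and was not called (0.20 ± 0.17, adjusted p = 0.391).

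BAFF receptor genes did not share in the fall. Tnfrsf13b, encoding TACI, which binds BAFF and APRIL, was higher in dbko, at 263 and 209 CPM against 117 and 115 CPM in wt (1.03 ± 0.13, adjusted p = 0.00024) and 108 and 129 CPM in cko. Tnfrsf13c, encoding BAFF-R, stood at 260.1 and 291 CPM in wt and 257 and 254 CPM in dbko, -0.11 ± 0.11 (adjusted p = 0.509). Tnfrsf17, encoding the receptor BCMA, was too low to test.

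**Figure D2:**
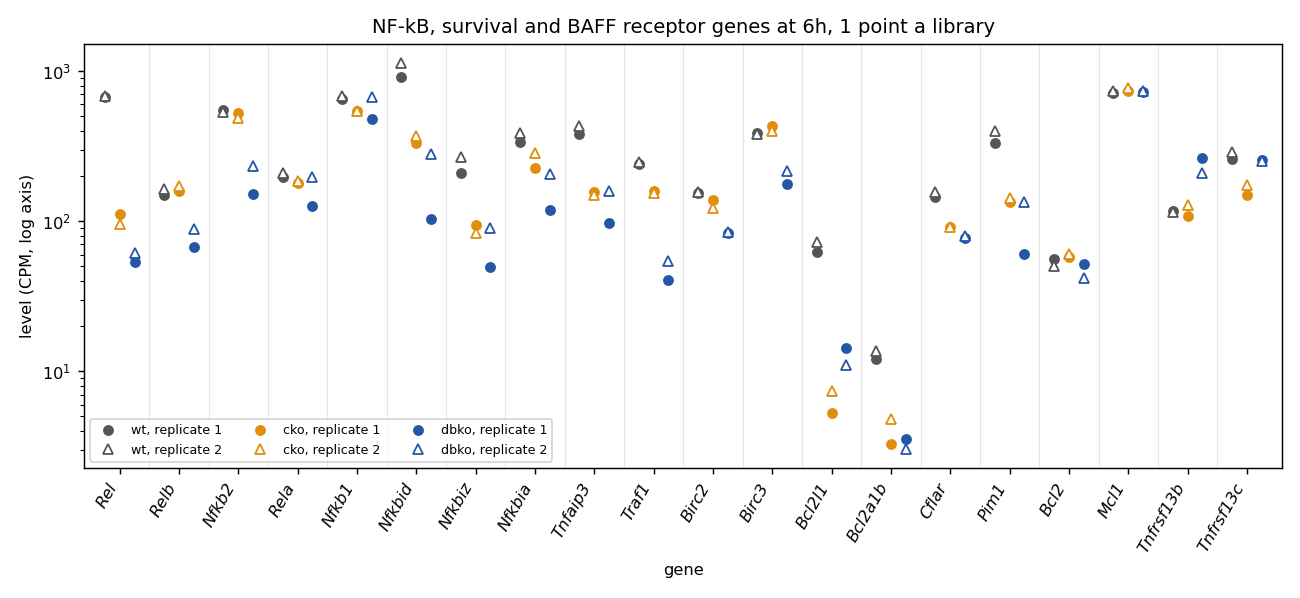
The level of 20 genes (CPM, log axis) in each 6h library of wt (grey), cko (orange) and dbko (blue), with replicate 1 as a filled circle and replicate 2 as an open triangle. The dbko libraries lie below wt for Rel, Relb, Nfkb2, Traf1 and Bcl2l1, above wt for Tnfrsf13b, and among the wt values for Mcl1, at 726 and 734 CPM against 718 and 737 CPM.

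The wider set of genes known as NF-kB targets was lower in dbko. Of 42 targets 25 were lower and 1 higher, and 18 of the lower ones stayed called with each library left out. Their median was -0.88 beside 0.05 for all genes, -1.18 in lane 7 and -0.70 in lane 8 from the libraries of that lane alone. Without dbko replicate 1 at both times 26 were lower and 3 higher. The list holds Nfkb2, Nfkbia, Nfkbie, Tnfaip3, Traf1 and Bcl2l1 among others, but not Nfkbid, so its count overlaps with those of the groups they come from. Icam1, an adhesion molecule, stood at 124 and 141 CPM in wt and 50.6 and 61.4 CPM in dbko (-1.24 ± 0.15, adjusted p = 0.000124). The single member called higher, the chemokine gene Cxcl10, stood at only 0.728 and 0.782 CPM in dbko, and its adjusted p of 0.0157 became 0.172 with wt replicate 1 left out.

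The letters of the kappaB consensus, the sequence NF-kB dimers bind, were looked for on both strands in the 250 bases before each start in RefSeq promoters (GRCm38.p6). They were found at 4.46% of 27025 genes with a promoter entry, at 5.39% of the 9422 of these that were tested here, at 8.41% of the 1118 called lower, at 5.92% of the 1486 called higher and at 4.78% of the 6818 not called. Of the known targets called lower 7 of the 19 with an entry held a match, of those not called 3 of 10, and the 1 called higher held one. Matching letters are a description and not a binding site. The stretches below come from those 7 promoters and that of Nfkbid, and are shown because they hold a match and their genes were called lower. Traf1, Birc3 and Icam1 had an entry and no match in these bases, and the calls of Nfkbie, Il2ra and Ltb were lost with some libraries left out. Each runs 5′ to 3′ along the gene's strand around the match nearest the start, and the capitals mark each match that lies wholly in the stretch. A gene can have more than 1 start, and it was counted when any of them had a match. The start used for a stretch is the first listed with a match, which need not be the outermost start of the gene.
Nfkb2: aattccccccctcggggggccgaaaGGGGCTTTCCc
Nfkbia: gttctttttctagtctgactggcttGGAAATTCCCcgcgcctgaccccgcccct
Nfkbid: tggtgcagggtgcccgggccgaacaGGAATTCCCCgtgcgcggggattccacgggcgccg
Nfkbie: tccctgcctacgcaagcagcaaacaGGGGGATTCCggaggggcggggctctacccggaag
Tnfaip3: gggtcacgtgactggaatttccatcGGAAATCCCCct
Bcl2l1: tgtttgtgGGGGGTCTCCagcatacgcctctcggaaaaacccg
Il2ra: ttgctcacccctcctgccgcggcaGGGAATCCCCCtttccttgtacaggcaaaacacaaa
Ltb: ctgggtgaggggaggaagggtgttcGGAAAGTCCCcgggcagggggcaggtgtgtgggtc
They lie at chr19:46304701-46304736 (+, Nfkb2), chr12:55492648-55492701 (-, Nfkbia), chr7:30422200-30422259 (+, Nfkbid), chr17:45555569-45555628 (+, Nfkbie), chr10:19015411-19015447 (-, Tnfaip3), chr2:152830925-152830967 (-, Bcl2l1), chr2:11642567-11642626 (+, Il2ra) and chr17:35194395-35194454 (+, Ltb). The match nearest the start begins at -11, -29, -181, -106, -12, -242, -200 and -87 relative to the start, in that order. The 250 bases of Nfkb2 held 4 matches, those of Il2ra 3 and those of Nfkbid and Tnfaip3 2 each, overlapping ones included. Il2ra, encoding the IL-2 receptor alpha chain and named here after its values were seen, stood at 131 and 136 CPM in wt and 44.1 and 39.6 CPM in dbko (-1.67 ± 0.43), and its adjusted p of 0.018 became 0.0582, 0.0542, 0.077 and 0.0919 with dbko replicate 1, dbko replicate 2, wt replicate 1 or wt replicate 2 left out. Ltb, encoding lymphotoxin beta, stood at 211 and 222 CPM and 92.7 and 139.5 CPM (-0.90 ± 0.22), and its adjusted p of 0.0117 became 0.08, 0.0512 and 0.0735 with dbko replicate 1, wt replicate 1 or wt replicate 2 left out.

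Survival genes were lower in part. Of 12 tested pro-survival genes 6 were lower and 1 higher, with a median of -0.63. Bcl2l1, which encodes Bcl-xL, stood at 62.8 and 72.4 CPM in wt and 14.2 and 10.9 CPM in dbko, 5.37-fold lower (-2.42 ± 0.17, adjusted p = 3.97e-06). Both dbko libraries were well below wt, and cko was lower still, at 5.28 and 7.36 CPM. The difference of dbko from cko, 0.99 ± 0.18 (adjusted p = 0.0047), had an adjusted p of 0.0512 with cko replicate 1 left out. Bcl2a1b, a gene of the A1 survival family whose reads can be shared with near copies, stood at 12.1 and 13.6 CPM in wt and 3.56 and 3.05 CPM in dbko (-1.96 ± 0.23, adjusted p = 0.000133). Cflar, encoding the caspase-8 inhibitor c-FLIP, stood at 146 and 156 CPM in wt and 77.8 and 79.9 CPM in dbko (-0.94 ± 0.13, adjusted p = 0.000377). Pim1, a survival kinase gene, stood at 334 and 399 CPM in wt and 60.8 and 134 CPM in dbko (-1.91 ± 0.27, adjusted p = 0.000724). In each of these the dbko libraries were both below both wt libraries. The kinase gene Pim3 was called lower too (-1.58 ± 0.33, adjusted p = 0.0074), with an adjusted p of 0.0525 with wt replicate 2 left out. So was Bcl2l2, encoding Bcl-w (-0.75 ± 0.16, adjusted p = 0.00576), with an adjusted p of 0.0525 with wt replicate 1 left out.

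Other survival genes did not pass. Mcl1, on which B cells depend at most stages, stood at 718 and 737 CPM in wt and 726 and 734 CPM in dbko (0.00 ± 0.12, adjusted p = 0.98), and Bcl2 at 55.9 and 50.3 CPM and 51.8 and 42.0 CPM (-0.18 ± 0.19, adjusted p = 0.525). The groups overlapped for both. The inhibitor of apoptosis Xiap stood at 171 and 169 CPM in wt and 182 and 142 CPM in dbko, and the kinase gene Akt1 at 145 and 151 CPM and 141 and 193 CPM. Pim2 differed between the dbko replicates, at 42.8 and 139 CPM against 126 and 134 CPM in wt, and was not called (-0.52 ± 0.38, adjusted p = 0.354). Bag3, a co-chaperone, was the one member called higher, at 5.58 and 3.52 CPM against 1.46 and 2.38 CPM (1.23 ± 0.31), and its adjusted p of 0.0118 became 0.0991 and 0.119 with dbko replicate 1 or wt replicate 1 left out.

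On the other side of the balance, 7 of 15 tested pro-apoptotic genes were higher and 1 was lower, with a median of 0.18. Casp9, the initiator caspase of the mitochondrial pathway, stood at 69.7 and 58.6 CPM in dbko and 43.4 and 43.8 CPM in wt (0.56 ± 0.11, adjusted p = 0.00298), and was the single higher member that stayed called with each library left out. Pmaip1, encoding the BH3-only protein Noxa, was lower, at 33.2 and 20.7 CPM against 51.6 and 60.2 CPM (-1.05 ± 0.18, adjusted p = 0.00173). Without dbko replicate 1 at both times 5 of the list were higher and 1 lower.

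Surface molecules of activated B cells were called lower more often than higher. Of 20 costimulation and activation genes 9 were lower and 3 higher, and 8 and 1 stayed so with each library left out. Cd83, an activation marker that stabilises MHC class II on the surface, stood at 1145 and 1373 CPM in wt and 371 and 511 CPM in dbko (-1.51 ± 0.20, adjusted p = 0.000244). Slamf7, a receptor of the SLAM family of lymphocyte receptors, stood at 81.4 and 93.0 CPM in wt and 31.2 and 40.0 CPM in dbko (-1.29 ± 0.16, adjusted p = 0.000197). Slamf1, the founding member of that family, stood at 9.88 and 9.94 CPM in wt and 4.13 and 3.44 CPM in dbko (-1.39 ± 0.17, adjusted p = 0.000146). In all 3 the genotypes were well apart. The 3 higher members, listed after their values were seen, were Cd38, Cd48 and Slamf6, at 236 and 209 CPM, 113 and 96.5 CPM and 151 and 93.2 CPM in dbko against 105 and 109 CPM, 79.7 and 80.8 CPM and 74.0 and 68.1 CPM in wt. Cd48 had an adjusted p of 0.173, 0.142 and 0.128 with dbko replicate 1, wt replicate 1 or wt replicate 2 left out, and Slamf6 of 0.138, 0.0663 and 0.11 with dbko replicate 1, wt replicate 1 or wt replicate 2 left out.

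Germinal centre and antigen presentation genes were examined next. Of 9 tested germinal centre markers 5 were lower and 0 higher, and 3 stayed so with each library left out. Fas, encoding a death receptor, stood at 6.41 and 7.73 CPM in wt and 2.02 and 1.56 CPM in dbko (-1.97 ± 0.27, adjusted p = 0.000379). Bcl6, the repressor that directs the germinal centre programme, stood at 129.9 and 141 CPM in wt and 85.6 and 96.5 CPM in dbko (-0.57 ± 0.10, adjusted p = 0.00219). Both dbko libraries were below both wt libraries in both genes. Of the 15 MHC class II presentation genes 2 were lower, Rfx5 and H2-Eb1, and 1 was higher, Rfxank, beside 11.5% and 15.2% of all genes. Rfx5, a subunit of the complex that switches on MHC class II genes, stood at 119.7 and 111 CPM in wt and 61.9 and 52.0 CPM in dbko (-1.02 ± 0.12, adjusted p = 0.000121). H2-Eb1 had an adjusted p of 0.145, 0.0686 and 0.203 with dbko replicate 2, wt replicate 1 or wt replicate 2 left out, and Rfxank of 0.118, 0.194 and 0.0883 with dbko replicate 2, wt replicate 1 or wt replicate 2 left out. With dbko replicate 1 left out at both times 10 of the 15 were lower.

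The chemokine genes Ccl3 and Ccl4, adjacent on chromosome 11, gave some of the greatest falls. Ccl3 stood at 170.0 and 238 CPM in wt, 36.5 and 55.9 CPM in cko and 13.1 and 34.5 CPM in dbko (-3.09 ± 0.37 against wt, adjusted p = 0.000398). Ccl4 stood at 323 and 420.2 CPM in wt, 68.7 and 103 CPM in cko and 18.4 and 50.5 CPM in dbko (-3.43 ± 0.39 against wt, adjusted p = 0.000304). In both, replicate 1 of dbko was the lowest of the 6 libraries at 6h. Ackr3, a scavenging chemokine receptor gene, stood at 5.22 and 3.57 CPM in wt and 0.324 and 0.938 CPM in dbko (-2.77 ± 0.41, adjusted p = 0.000593). Ccr9, encoding the receptor for the gut chemokine CCL25, stood at 91.3 and 79.4 CPM in dbko and 17.2 and 18.7 CPM in wt (2.25 ± 0.16, adjusted p = 5.1e-06). These receptors moved in opposite directions, each with the groups apart. Among cytokine receptor genes 7 of 19 were lower and 5 higher, and 4 and 4 stayed so with each library left out. Il2rg, the shared gamma chain gene, stood at 295 and 315 CPM in wt and 158 and 184 CPM in dbko (-0.83 ± 0.13, adjusted p = 0.000892). Csf2rb, the common beta chain gene of the GM-CSF, IL-3 and IL-5 receptors, stood at 251 and 223 CPM in dbko and 73.7 and 71.8 CPM in wt (1.71 ± 0.19, adjusted p = 0.000104). Il2rb, the beta chain gene of the IL-2 and IL-15 receptors, stood at 9.79 and 16.6 CPM in dbko and 1.74 and 1.70 CPM in wt (2.94 ± 0.44, adjusted p = 0.000681). The rest of the higher members, listed after their values were seen, were Il6ra, Il10ra and Il7r, and Il7r had an adjusted p of 0.084, 0.245 and 0.0852 with dbko replicate 1, wt replicate 1 or wt replicate 2 left out.

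Growth genes were lower as well. Of 40 ribosome biogenesis genes 18 were lower and 0 higher, with a median of -0.48, and 7 of them stayed called with each library left out. Polr1b, a subunit gene of RNA polymerase I, stood at 171 and 169.6 CPM in wt and 62.1 and 87.8 CPM in dbko (-1.18 ± 0.21, adjusted p = 0.00234). Gnl3, encoding a nucleolar GTPase, stood at 280.2 and 304 CPM in wt and 115 and 167 CPM in dbko (-1.05 ± 0.16, adjusted p = 0.000593). Nolc1, encoding a nucleolar phosphoprotein, stood at 296 and 309.8 CPM in wt and 126 and 188 CPM in dbko (-0.95 ± 0.18, adjusted p = 0.00294). In each, dbko replicate 1 lay further from wt than replicate 2, and both were below it. Myc, a regulator of this gene group, was outside the naming rule and looked up after the values were seen. It stood at 480.1 and 586 CPM in wt, 179 and 232 CPM in cko and 104 and 257 CPM in dbko (-1.56 ± 0.31 against wt, adjusted p = 0.00485). Between dbko and cko 0 of the 40 were lower and 0 higher.

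Of 29 tested glycolysis and hypoxia genes 12 were lower and 0 higher, and 5 stayed so with each library left out. The replicates parted here: the list median was -1.40 in lane 7 and -0.33 in lane 8. Ero1l, encoding an oxidase of the endoplasmic reticulum induced by hypoxia, stood at 198 and 217 CPM in wt and 34.1 and 75.1 CPM in dbko (-1.92 ± 0.27, adjusted p = 0.000683). Vegfa, encoding the angiogenic factor VEGF-A, stood at 122 and 130.3 CPM in wt and 31.9 and 63.9 CPM in dbko (-1.40 ± 0.26, adjusted p = 0.00307). Slc16a1, a lactate carrier gene, stood at 96.0 and 104 CPM in wt and 41.3 and 60.6 CPM in dbko (-0.97 ± 0.18, adjusted p = 0.00214). Replicate 1 of dbko was the lowest library in all 3. Against cko 9 of the list were lower in dbko (4.66% of all genes) and 0 higher.

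Among 12 genes of amino acid and transferrin uptake 6 were lower, and 4 stayed so with each library left out. Slc1a5, a glutamine carrier gene, stood at 381 and 359 CPM in wt and 92.7 and 95.4 CPM in dbko (-1.98 ± 0.15, adjusted p = 7.23e-06). In cko it stood at 336 and 247 CPM, and dbko differed from cko by -1.63 ± 0.15 (adjusted p = 6.12e-05). Slc1a5 was as far apart at 0h, at 249 and 265 CPM in wt and 65.6 and 57.4 CPM in dbko (-2.06 ± 0.16, adjusted p = 7e-06). No difference between the times was called for it (0.09 ± 0.21, adjusted p = 0.822). Slc7a1, a cationic amino acid carrier gene, stood at 362 and 377 CPM in wt and 175 and 222 CPM in dbko (-0.90 ± 0.15, adjusted p = 0.00136). Tfrc, the transferrin receptor gene, stood at 419 and 469 CPM in wt and 288 and 252 CPM in dbko (-0.72 ± 0.13, adjusted p = 0.00209). None of the 3 overlapped between wt and dbko. Slc7a11, a cystine carrier gene seen after its values were known, stood at 13.7 and 2.58 CPM in dbko and 0.732 and 0.255 CPM in wt. It passed the filter on low counts through the dbko libraries, so its call is not used.

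Transcription factors moved both ways. Of 24 immediate early genes 7 were lower and 1 was higher, and 3 and 1 stayed so with each library left out. Without dbko replicate 2 at both times 15 were lower, and without a filter 13. Nr4a1, a nuclear receptor gene that antigen receptor signals induce, stood at 1094 and 1427 CPM in wt and 109 and 308 CPM in dbko (-2.59 ± 0.48, adjusted p = 0.00387). Nr4a3, of the same family, stood at 137 and 156 CPM in wt and 38.8 and 56.4 CPM in dbko (-1.62 ± 0.25, adjusted p = 0.00106). Jun, a subunit gene of AP-1 and the higher member, stood at 65.0 and 91.8 CPM in dbko and 38.1 and 35.3 CPM in wt (1.10 ± 0.19, adjusted p = 0.00187). The NR4A genes were lowest in dbko replicate 1, and Jun was highest in dbko replicate 2. Among B and plasma cell regulators 8 of 25 were lower and 7 higher, and 5 and 3 stayed so with each library left out. Pou2af1, the B cell coactivator of octamer promoters, stood at 1207 and 1193 CPM in wt and 529 and 610.2 CPM in dbko (-1.08 ± 0.12, adjusted p = 8.17e-05). In cko it was above both, at 1823 and 2062 CPM, and dbko differed from cko by -1.77 ± 0.12 (adjusted p = 4.53e-06). Zbtb46, a zinc finger factor best known from dendritic cells, stood at 51.6 and 50.7 CPM in wt and 3.96 and 7.35 CPM in dbko (-3.17 ± 0.25, adjusted p = 9.41e-06). Irf4, needed for plasma cell fate, stood at 1220.1 and 1302 CPM in wt and 600.0 and 812 CPM in dbko (-0.84 ± 0.17, adjusted p = 0.00454). Among the higher, with both dbko libraries above wt, were Id2, Xbp1 and, from the list of transitional B cell markers, Sox4. Id2, an inhibitor of E proteins, stood at 44.9 and 38.8 CPM in dbko and 14.9 and 15.2 CPM in wt (1.47 ± 0.22, adjusted p = 0.000584). Xbp1, a regulator of secretion, stood at 146 and 173 CPM in dbko and 94.5 and 106 CPM in wt (0.67 ± 0.11, adjusted p = 0.00097). Sox4, a factor of early B cells, stood at 49.0 and 42.2 CPM in dbko and 13.7 and 14.1 CPM in wt (1.71 ± 0.17, adjusted p = 3.99e-05).

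Genes of the NRF2 response, which guards against oxidants and handles heme, were nearly all higher. Of 15 members 14 were higher, 1 of which (Slc7a11) passed the filter through the dbko libraries, and 0 were lower, with a median of 0.85, 0.81 in lane 7 and 1.02 in lane 8. With each library left out 5 stayed called, and without dbko replicate 1 at both times 15 were higher. Hmox1, encoding heme oxygenase, stood at 62.3 and 50.1 CPM in wt and 365 and 244 CPM in dbko (2.44 ± 0.22, adjusted p = 2.68e-05). In cko it stood at 71.0 and 85.0 CPM. Nqo1, encoding a quinone reductase, stood at 1.65 and 1.27 CPM in wt and 15.9 and 11.9 CPM in dbko (3.25 ± 0.38, adjusted p = 0.000128). Keap1, encoding the sensor that holds NRF2 down, stood at 55.8 and 52.6 CPM in wt and 77.2 and 78.9 CPM in dbko (0.53 ± 0.10, adjusted p = 0.00266). In all 3 genes both dbko libraries were above both wt libraries. Erythroid markers without Tfrc, from cells rich in heme, summed to 325 and 154 CPM in dbko and 24.1 and 28.0 CPM in wt. With Tfrc, which was lower in dbko, the sums were 613 and 406 CPM in dbko and 443 and 497 CPM in wt, and the groups overlapped. Macrophage markers without Apoe and Mpeg1 summed to 322 and 113 CPM and 44.6 and 43.7 CPM, and with them to 608 and 378 CPM in dbko and 305 and 298 CPM in wt. Their part in the rises of this group was not tested.

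Markers of follicular B cells were called in both directions, while called markers of marginal zone and B-1 cells were higher in all but 1 case. Fcer2a, encoding CD23, a defining follicular marker, stood at 552 and 515 CPM in wt and 167 and 168 CPM in dbko (-1.67 ± 0.17, adjusted p = 4.74e-05). In both dbko libraries it was below both wt libraries. Over the whole follicular list 3 of 17 tested members were lower and 3 higher, beside 11.5% and 15.2% of all genes. The higher ones were Ms4a1, Cd79b and Ighm, each called no more with at least 1 library left out, at an adjusted p of up to 0.0536, 0.127 and 0.186 without wt 6h replicate 2, wt 6h replicate 1 and dbko 6h replicate 2. Of 12 tested markers of B-1 cells, another B cell type, 7 were higher and 1 lower, with a median of 1.30. The lower one was Bhlhe40, seen after its values were known, with an adjusted p of 0.0608 and 0.0674 with dbko replicate 1 or wt replicate 2 left out. Of the higher ones 1 held with each library left out, Bhlhe41, a transcription factor gene, at 59.1 and 64.9 CPM in wt, 95.5 and 87.9 CPM in cko and 128 and 111 CPM in dbko (0.95 ± 0.17 against wt, adjusted p = 0.00178). Cd5, a defining B-1 marker looked up after its values were seen, stood at 5.49 and 3.82 CPM in wt and 4.21 and 6.64 CPM in dbko and was not called (0.22 ± 0.34, adjusted p = 0.66). Of 15 marginal zone markers 6 were higher and 0 lower, with a median of 0.90, and 4 held with each library left out. S1pr3, a sphingosine phosphate receptor gene of marginal zone cells, stood at 32.4 and 31.4 CPM in wt and 100.1 and 87.9 CPM in dbko (1.56 ± 0.16, adjusted p = 5.39e-05). Plac8, a marginal zone marker, stood at 671 and 724 CPM in wt and 1669.5 and 1784 CPM in dbko (1.31 ± 0.15, adjusted p = 8.79e-05). Cd9, encoding a tetraspanin, stood at 30.9 and 36.3 CPM in wt and 60.2 and 124 CPM in dbko (1.45 ± 0.26, adjusted p = 0.00251). In all 3 both dbko libraries lay above both wt libraries. Without dbko replicate 1 at both times 9 of the list were higher and 2 lower.

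Genes for leaving the spleen and homing were more often higher, 10 of 20 against 2 lower, among them Icam1. With each library left out 5 of the higher ones stayed called. S1pr4, encoding another sphingosine phosphate receptor, stood at 95.6 and 115 CPM in dbko and 48.0 and 51.7 CPM in wt (1.08 ± 0.14, adjusted p = 0.000303). Signalling genes below the B cell receptor were higher in 8 of 26 cases and lower in 3, and 3 and 1 stayed so with each library left out. Plcg2, the phospholipase that B cell receptor signals use, stood at 511 and 469 CPM in dbko and 287 and 284 CPM in wt (0.78 ± 0.12, adjusted p = 0.00068). Dok3, an inhibitory adaptor, stood at 293 and 368 CPM in dbko and 172 and 161 CPM in wt (0.99 ± 0.18, adjusted p = 0.0022). For these signalling genes the dbko libraries were both above wt. Rasgrp3, a Ras activator, stood at 262 and 249 CPM in wt and 99.8 and 82.6 CPM in dbko (-1.49 ± 0.25, adjusted p = 0.00187). It was lower, as was Cd72, seen after its values were known, with an adjusted p of 0.0875, 0.0557 and 0.0998 with dbko replicate 1, wt replicate 1 or wt replicate 2 left out.

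Stress genes of the unfolded protein and ATF4 responses were higher in 12 of 25 cases, 3 of them with each library left out, and lower in 1. Phgdh, the entry enzyme of serine synthesis, stood at 70.6 and 80.3 CPM in dbko and 35.8 and 34.2 CPM in wt (1.11 ± 0.19, adjusted p = 0.00142). Ppp1r15a, encoding the eIF2-alpha phosphatase subunit GADD34 and the lower member, stood at 178 and 235 CPM in wt and 31.0 and 68.6 CPM in dbko (-2.05 ± 0.33, adjusted p = 0.00184). The groups did not overlap in either gene.

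**Figure D3:**
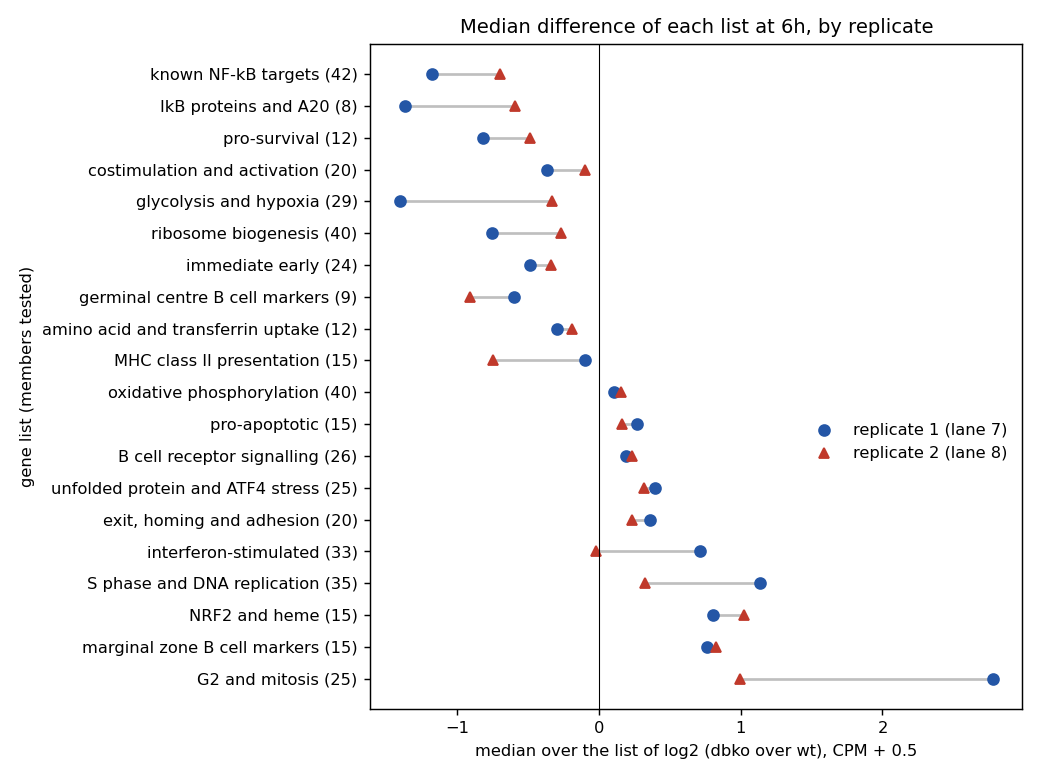
For 20 gene lists, the median over tested members of log2 (dbko over wt) in lane 7 (replicate 1, circles) and lane 8 (replicate 2, triangles), from CPM + 0.5; the number of tested members follows each name. The NF-kB target median was -1.18 and -0.70, while the G2 and mitosis median was 2.78 in lane 7 and 1.00 in lane 8.

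Cell cycle genes were called higher, with most of their RNA in 1 library. Of 25 G2 and mitosis genes 24 were called higher in dbko, with a median of 2.22, but 0 stayed called when each library was left out in turn. Their summed level was 417 and 401 CPM in wt and 2862 and 724 CPM in dbko, so replicate 1 stood far above replicate 2. At 0h the dbko replicates parted in the same direction, at 2469.6 and 939 CPM against 580.4 and 558 CPM in wt. Mki67, encoding the proliferation marker Ki-67, stood at 66.8 and 52.1 CPM in wt and 574 and 109 CPM in dbko at 6h (2.52 ± 0.73, adjusted p = 0.0344), and the adjusted p became 0.262, 0.139 and 0.186 with dbko replicate 1, wt replicate 1 or wt replicate 2 left out. When dbko replicate 1 was dropped at both times, 23 of the 25 were called higher on replicate 2 alone, a fit that takes the lone library to vary like the other groups. Of 35 S phase and DNA replication genes 13 were higher and 1 lower (Pold1, a polymerase subunit seen after its values were known, with an adjusted p of 0.0647 with wt replicate 2 left out). Of the higher ones 3 stayed so with each library left out. Pcna, the replication clamp, stood at 75.0 and 74.4 CPM in wt and 141 and 102 CPM in dbko (0.70 ± 0.14, adjusted p = 0.00376). In the list of MYC and G1 genes the cyclin-dependent kinase gene Cdk6 was lower and Mxd4, a partner of MAX that opposes MYC, was higher. Cdk6, which drives cells through G1, stood at 49.5 and 51.7 CPM in wt and 22.8 and 21.4 CPM in dbko (-1.19 ± 0.13, adjusted p = 8.98e-05). Mxd4, the opposing factor, stood at 128 and 114 CPM in dbko and 53.0 and 48.7 CPM in wt (1.25 ± 0.20, adjusted p = 0.000981).

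RNA of genes used as markers of other cells was counted in the dbko libraries. Of 18 erythroid markers other than Tfrc, 16 exceeded 1 CPM in both dbko libraries and 2 in both wt libraries, and in each wt library 6 of the 18 were at 0. Their summed level was 325 and 154 CPM in dbko, 24.1 and 28.0 CPM in wt and 27.4 and 30.8 CPM in cko. At 0h it was higher, at 2208 and 1092 CPM in dbko, 152 and 158 CPM in cko and 57.9 and 62.2 CPM in wt. In both cko libraries at 6h 4 of the 18 exceeded 1 CPM. As few of these genes exceeded it at 6h outside dbko, the number called is not used as support. Slc4a1, the anion exchanger of red cells, stood at 0 and 0.255 CPM in wt and 32.9 and 14.9 CPM in dbko at 6h. Hbb-bs, a beta globin gene whose reads can be shared with Hbb-bt, stood at 0.366 and 0.934 CPM in wt and 129.9 and 44.1 CPM in dbko. Alas2, the erythroid enzyme of heme synthesis, stood at 0.092 and 0.085 CPM in wt and 15.9 and 5.86 CPM in dbko. In each gene replicate 1 of dbko was the highest of the 4 libraries.

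Monocyte and macrophage markers were another such set. The whole list of 20 summed to 305 and 298 CPM in wt and 608 and 378 CPM in dbko. Most of the wt sum came from Apoe, at 169.7 and 171 CPM in wt and 13.7 and 18.3 CPM in dbko and so lower in dbko, and from Mpeg1, at 91.2 and 82.4 CPM in wt and 272 and 246 CPM in dbko. Without this pair, left out after its values were seen, the other 18 markers summed to 44.6 and 43.7 CPM in wt, 35.3 and 34.7 CPM in cko and 322 and 113 CPM in dbko. At 0h the sums were 202 and 206 CPM in wt and 325 and 179 CPM in dbko. Spic, a factor of red pulp macrophages, stood at 3.29 and 3.14 CPM in wt and 25.9 and 9.61 CPM in dbko (2.46 ± 0.38, adjusted p = 0.00073). Lyz2, encoding lysozyme, stood at 1.74 and 0.51 CPM in wt and 47.7 and 12.9 CPM in dbko (4.76 ± 0.69, adjusted p = 0.00102). Adgre1, encoding F4/80, stood at 13.5 and 14.9 CPM in wt and 32.7 and 26.2 CPM in dbko (1.05 ± 0.14, adjusted p = 0.00036). All were low in wt and higher in both dbko libraries. Neutrophil markers summed to 8.09 and 2.74 CPM in dbko and 0.641 and 0.51 CPM in wt. Dendritic markers without Zbtb46 and Ccr9 summed to 50.5 and 38.8 CPM in dbko and 33.2 and 34.6 CPM in wt. With this pair, of which Zbtb46 was lower in dbko and Ccr9 higher, the sums were 146 and 126 CPM in dbko and 102 and 104 CPM in wt. Whether the RNA of these markers came from other cells or from the B cells was not tested, nor was its part in the other rises in dbko.

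**Figure D4:**
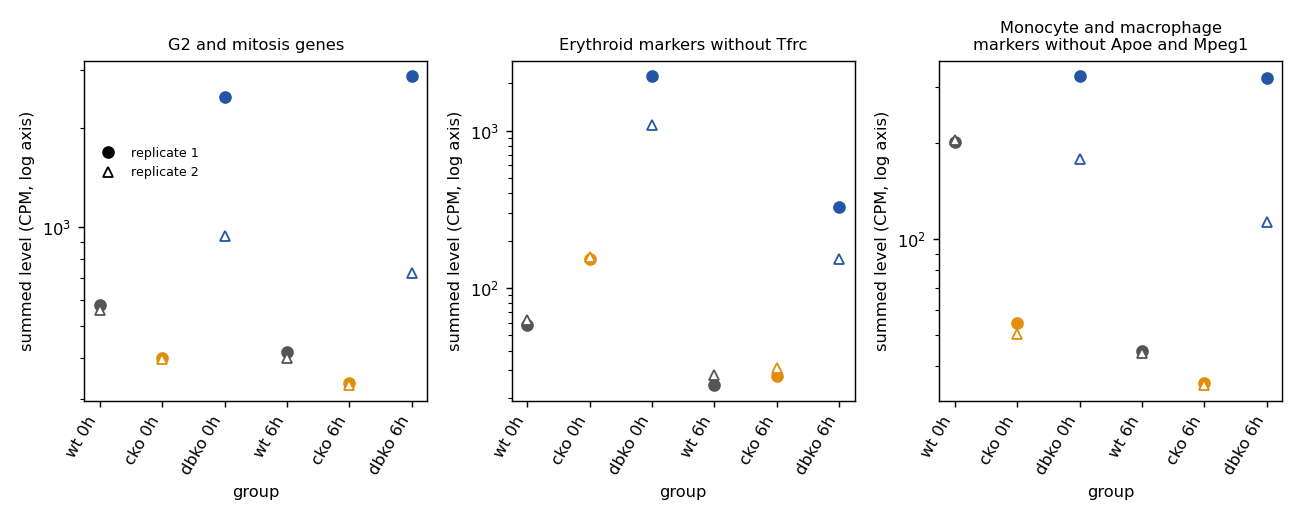
The summed level (CPM, log axis) of G2 and mitosis genes, erythroid markers without Tfrc and monocyte and macrophage markers without Apoe and Mpeg1 in each library of wt, cko and dbko at 0h and 6h, with circles for replicate 1 and triangles for replicate 2. In all 3 panels dbko replicate 1 is the highest library of its time, at 2862, 325 and 322 CPM at 6h.

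Some of the greatest falls left almost no RNA of the gene. Il9r, the interleukin 9 receptor gene (chromosome 11, 32187541 to 32200279, minus strand), was counted at 326 and 278 CPM in wt, 588 and 464 CPM in cko and 3.88 and 11.4 CPM in dbko (-5.30 ± 0.48 against wt, adjusted p = 8.33e-05). At 0h it stood at 79.6 and 70.6 CPM in wt and 0.657 and 4.31 CPM in dbko, so both dbko libraries were below wt at that time as well. Apoe, encoding apolipoprotein E (chromosome 7, 19696109 to 19699188, minus strand), lies near Relb, and was counted at 169.7 and 171 CPM in wt, 267 and 359.6 CPM in cko and 13.7 and 18.3 CPM in dbko (-3.41 ± 0.18 against wt, adjusted p = 3.62e-07). At 0h it stood at 119 and 124 CPM in wt and 9.86 and 7.76 CPM in dbko. In cko neither gene was below wt. Of the other 14 tested neighbours of Relb 2 were called higher, Klc3 and Nectin2, and 0 lower, beside 15.2% and 11.5% of all genes. Klc3 had an adjusted p of 0.109, 0.169 and 0.0582 with dbko replicate 2, wt replicate 1 or wt replicate 2 left out. Nectin2 passed the filter through the dbko libraries. Its adjusted p was 0.389, 0.196 and 0.214 with dbko replicate 1, wt replicate 1 or wt replicate 2 left out. Pglyrp1, a peptidoglycan recognition protein gene on the same chromosome (chromosome 7, 18871331 to 18890459, plus strand), was counted at 12.4 and 10.1 CPM in wt, 14.7 and 23.0 CPM in cko and 1.05 and 0.703 CPM in dbko (-3.66 ± 0.30 against wt, adjusted p = 9.93e-06).

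In some genes, with several named above among them, the cko libraries stood on the same side of wt as dbko. Of the 42 NF-kB targets 16 were lower in cko than in wt and 0 higher, beside 1.96% and 1.58% of all genes. Icam1 stood at 60.9 and 53.5 CPM in cko, Slamf7 at 37.5 and 39.5 CPM and Cdk6 at 27.6 and 23.9 CPM. Il2ra stood lower in cko than in dbko, at 20.9 and 21.2 CPM. Nfkb2 and Birc3, given above, lay near wt in cko. The pseudogene Gpr137b-ps stood at 39.2 and 47.9 CPM in wt, 0.176 and 0.245 CPM in cko and 0.728 and 0.469 CPM in dbko (-6.16 ± 0.28 against wt, adjusted p = 4.95e-08). Within the Ifi200 family, whose near copies can share reads, Ifi213 stood at 10.1 and 9.43 CPM in wt, 1.06 and 0.572 CPM in cko and 0.809 and 0.703 CPM in dbko (-3.67 ± 0.35 against wt, adjusted p = 3.65e-05). Ifi204 went the other way, at 0.458 and 0.17 CPM in wt, 16.6 and 12.0 CPM in cko and 21.4 and 12.0 CPM in dbko (5.71 ± 0.44 against wt, adjusted p = 7.23e-06). Neither Ifi213 (-0.09 ± 0.47, adjusted p = 0.925) nor Ifi204 (0.23 ± 0.27, adjusted p = 0.64) was called between dbko and cko. Next to Rel, Pus10 (chromosome 11, 23665674 to 23732876, plus strand) was counted at 36.9 and 37.4 CPM in wt, 9.14 and 7.68 CPM in cko and 18.6 and 11.6 CPM in dbko (-1.30 ± 0.20 against wt, adjusted p = 0.000851). It was lower still in cko, and dbko differed from cko by 0.85 ± 0.22 (adjusted p = 0.0232, and 0.214, 0.071 and 0.131 with dbko replicate 1, cko replicate 1 or cko replicate 2 left out). Of the 8 tested neighbours of Rel 3 were lower, Pus10, Papolg and the nuclear export gene Xpo1, and 1 was higher, Bcl11a, with an adjusted p of 0.449, 0.186 and 0.138 with dbko replicate 1, wt replicate 1 or wt replicate 2 left out. Papolg stood at 89.1 and 94.6 CPM in wt, 87.0 and 83.2 CPM in cko and 59.2 and 56.9 CPM in dbko, so cko lay near wt here. Sfn, encoding the protein 14-3-3 sigma, stood at 66.5 and 58.1 CPM in wt, 12.8 and 12.3 CPM in cko and 5.10 and 8.75 CPM in dbko (-3.16 ± 0.24 against wt, adjusted p = 5.92e-06). Cdk5r1, an activator of CDK5, stood at 86.9 and 112 CPM in wt, 18.2 and 20.5 CPM in cko and 4.29 and 10.2 CPM in dbko (-3.77 ± 0.33 against wt, adjusted p = 3.99e-05). In Sfn and Cdk5r1 wt was above every library of cko and dbko. Both were lower in dbko than in cko, Sfn by a difference of -0.86 ± 0.24 (adjusted p = 0.0322, and 0.202, 0.125 and 0.097 with dbko replicate 1, cko replicate 1 or cko replicate 2 left out) and Cdk5r1 of -1.41 ± 0.33 (adjusted p = 0.0181, and 0.0716, 0.0773 and 0.0951 with dbko replicate 1, cko replicate 1 or cko replicate 2 left out).

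The dbko replicates themselves differed in genes whose wt libraries were close. Trim12a (chromosome 7, 104299894 to 104315466, minus strand) was counted at 0.243 and 86.7 CPM in dbko and 109 and 113 CPM in wt at 6h. At 0h it stood at 0.094 and 103 CPM in dbko and 102 and 94.4 CPM in wt, so replicate 1 was near 0 at both times. Its neighbour Trim34a (chromosome 7, 104244457 to 104262234, plus strand) was counted at 6.96 and 63.7 CPM in dbko and 70.8 and 72.8 CPM in wt at 6h. Trim30d, of the same cluster (chromosome 7, 104470014 to 104507849, minus strand), was counted at 0.566 and 15.9 CPM in dbko and 31.2 and 23.8 CPM in wt. In both the low library was again replicate 1, and none of the 3 genes was called between the genotypes at 6h. Slc15a2, a peptide carrier gene, stood at 3.8 and 35.3 CPM in dbko and 168 and 168 CPM in wt and was not called (-3.10 ± 1.03, adjusted p = 0.0584). The calcium-binding protein gene S100a4 stood at 98.7 and 10.2 CPM in dbko and 2.20 and 1.87 CPM in wt, and its relative S100a6 at 244 and 59.7 CPM and 12.7 and 14.0 CPM. Jchain, which joins secreted antibodies, stood at 23.5 and 166 CPM in dbko and 13.3 and 14.4 CPM in wt. These last 3 were called higher in dbko. The adjusted p was 0.334, 0.195 and 0.218 with dbko replicate 1, wt replicate 1 or wt replicate 2 left out for S100a4, 0.22, 0.178 and 0.175 with dbko replicate 1, wt replicate 1 or wt replicate 2 left out for S100a6 and 0.297, 0.184 and 0.179 with dbko replicate 2, wt replicate 1 or wt replicate 2 left out for Jchain. The genes of this paragraph were picked by rule for their difference between the dbko libraries, so those differences are a description.

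Set against cells lacking c-Rel alone, dbko cells differed at 6h in 1697 genes (13.4%), 1108 higher (8.77%) and 589 lower (4.66%), while cko differed from wt in 447 (3.54%). The 3 contrasts share libraries in pairs, so their counts are not independent. The count for dbko against cko was 733 without dbko replicate 1 and 3019 without dbko replicate 2, and 559 and 870 without cko replicates 1 and 2. Lower in dbko than in cko beside Nfkb2, Traf1, Birc3, Slc1a5 and Pou2af1 was Itgb3, the integrin beta 3 gene, at 259.6 and 282 CPM in wt, 549 and 506 CPM in cko and 30.9 and 93.9 CPM in dbko (-3.08 ± 0.38 against cko, adjusted p = 0.00117, and -2.12 ± 0.37 against wt, adjusted p = 0.00298). Higher in dbko than in cko were Tnfrsf13b (1.00 ± 0.13, adjusted p = 0.00075), S1pr3 (1.8 ± 0.16, adjusted p = 5.75e-05), Hmox1 (1.96 ± 0.21, adjusted p = 0.000245) and Csf2rb (1.58 ± 0.19, adjusted p = 0.000449). Of the 42 NF-kB targets 6 were lower in dbko than in cko (Nfkb2, Traf1, Birc3, Cd86, Ccl4 and Ltb) and 3 higher (Bcl2l1, Ebi3 and Ccl22, of which the last 2 were listed after their values were seen), with a median of -0.18 beside -0.00 for all genes. The adjusted p was 0.0796, 0.0799 and 0.206 with dbko replicate 1, cko replicate 1 or cko replicate 2 left out for Ccl4, 0.0512 with cko replicate 1 left out for Bcl2l1 and 0.245, 0.18 and 0.117 with dbko replicate 2, cko replicate 1 or cko replicate 2 left out for Ebi3. Marginal zone markers were higher than in cko in 3 of 15 cases, S1pr3, Cd9 and Myof, with a median of 0.11. The adjusted p was 0.161, 0.189 and 0.0898 with dbko replicate 2, cko replicate 1 or cko replicate 2 left out for Cd9 and 0.0519, 0.0734 and 0.119 with dbko replicate 1, cko replicate 1 or cko replicate 2 left out for Myof. Plac8 stood at 1393 and 1804 CPM in cko and was not called between them (0.11 ± 0.14, adjusted p = 0.671).

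Whether the gap at 6h differed from the gap at 0h was tested as the difference between the 2 differences, and 1749 genes (13.8%) were called, 877 (6.94%) lower and 872 (6.9%) higher. That count was 1665 and 2634 without dbko 6h replicates 1 and 2, 741 and 596 without those of wt at 6h, 1270 and 2489 without those of dbko at 0h, and 595 and 613 without those of wt at 0h. No culture without BAFF was analysed here, so BAFF and time in culture cannot be told apart. Bcl2l1 stood at 10.5 and 9.68 CPM in wt and 8.55 and 8.14 CPM in dbko at 0h, and its difference at 6h less that at 0h was -2.15 ± 0.25 (adjusted p = 0.000462). The gap was also wider at 6h for the NF-kB genes Traf1 (-1.82), Nfkb2 (-1.18), Birc3 (-1.05) and Nfkbiz (-1.86). The same held for the chemokine genes Ccl3 (-3.0) and Ccl4 (-3.33), and for Nr4a3 (-1.76), Polr1b (-1.48) and Slc7a1 (-1.44). Ccl4 at 0h stood at 29.9 and 27.2 CPM in wt and 23.2 and 30.1 CPM in dbko, where the groups overlapped. Of the 42 NF-kB targets 11 had a lower gap at 6h and 1 a higher one, beside 6.94% and 6.9% of all genes. At 0h 12 of these targets were already called lower in dbko and 4 higher, beside 4.55% and 7.1% of all genes. Tnfaip3 was lower at 0h (-1.20 ± 0.27, adjusted p = 0.0166), and its change to 6h was not called (-0.47 ± 0.38, adjusted p = 0.457). Ribosome biogenesis genes had a lower gap at 6h in 21 of 40 cases and a higher one in 0, and 4 of them were called above wt at 0h and 0 below, where 7.1% of all genes were called above and 4.55% below.

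Some gaps turned round between the times. Zbtb46 stood at 2.50 and 2.42 CPM in wt and 9.02 and 5.75 CPM in dbko at 0h, where dbko was higher (1.58 ± 0.30, adjusted p = 0.00476), and the change to 6h was -4.75 ± 0.39 (adjusted p = 0.000167). Tfrc stood at 187 and 194 CPM in wt and 571 and 449 CPM in dbko at 0h (1.42 ± 0.13, adjusted p = 3.29e-05), and its change to 6h was -2.14 ± 0.18 (adjusted p = 0.000167). In both the order of the genotypes was the reverse of that at 6h. In the other direction, Hmox1 stood at 49.8 and 52.6 CPM in wt and 37.8 and 25.9 CPM in dbko at 0h (-0.69 ± 0.22, adjusted p = 0.0646), and the 6h difference exceeded that at 0h by 3.12 ± 0.31 (adjusted p = 0.000257). Tnfrsf13b (1.41 ± 0.19, adjusted p = 0.000881), S1pr3 (2.05 ± 0.23, adjusted p = 0.000388), Mxd4 (2.04 ± 0.28, adjusted p = 0.00114), Dok3 (1.63 ± 0.26, adjusted p = 0.00216) and Jun (2.66 ± 0.27, adjusted p = 0.000257) also gained against wt between 0h and 6h. For Rel (0.21 ± 0.19, adjusted p = 0.505), Relb (-0.04 ± 0.20, adjusted p = 0.925), Apoe (0.37 ± 0.26, adjusted p = 0.379) and Il9r (-0.38 ± 0.77, adjusted p = 0.791) no difference between the times was called.

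**Figure D5:**
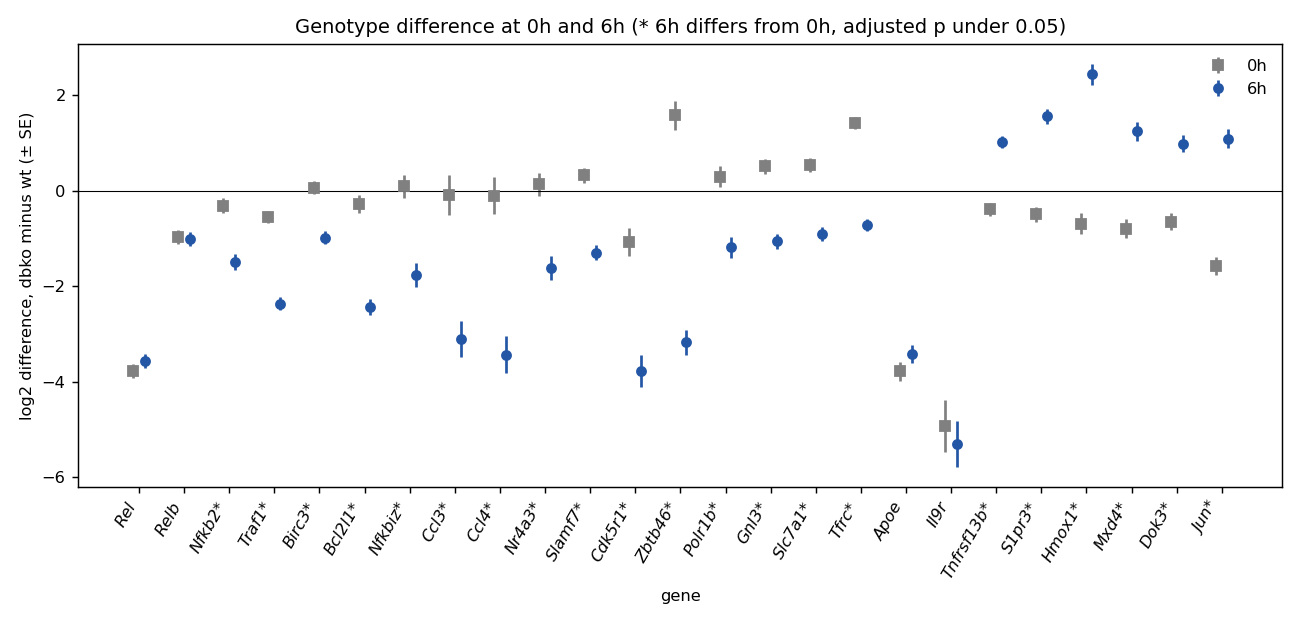
The log2 difference between dbko and wt (± SE) at 0h (grey squares) and 6h (blue circles) for 25 genes, with a star where the 6h difference departed from the 0h difference at an adjusted p under 0.05. No star stands at Rel, Relb, Apoe or Il9r, while Ccl3 moved by -3.0 and Hmox1 by 3.12.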

How the data were processed

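The comparison used 4 of 14 RNA-seq libraries, and the fit used all 14 (7 groups of 2). The values are whole-number read counts per Ensembl gene, deposited by the authors in 1 table per library. CASAVA 1.8.2 is named in the submitters' processing notes. The aligner, counting program, strand setting and genome build were not given in the sources used here. The tables' own tallies put 38.77 to 42.76% of reads at multiple sites in the 4 libraries compared. These lie outside the gene counts, so genes with near copies (globins, Bcl2a1b, Ifi200 and H2 genes) are uncertain. Summary lines that name no gene were dropped, and 37607 of 39179 gene identifiers matched a symbol. Coordinates are those of GRCm38 (GENCODE M21), while the authors' build is unknown here.

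Counts were scaled by TMM, filtered by group (filterByExpr) and tested with edgeR 4.0.16 (R 4.3.3, limma 3.58.1), by a two-sided quasi-likelihood test with Benjamini-Hochberg adjustment over all genes tested. The code was tested on simulated counts. Alternatives were DESeq2 1.42.0 (size factors, or its Wald test), no filter, the compared groups alone, a replicate block and each library left out. The replicate number is the sequencing lane in the labels (7 or 8), a shared batch, so it pairs libraries. Deviations of same-numbered dbko and wt libraries at 6h correlated at 0.241, and the block moved the count of called genes from 3370 to 3505. Each library is 1 sample. The chi-square per gene between replicates, about 1 from counting noise alone, ran from 2.84 in wt at 27h to 35.5 in dbko at 6h. This average does not describe genes with few counts.

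The genes and lists were chosen with earlier results of these data known. A few genes counted in the lists are not reported here. Named were Rel and Relb, the 12 greatest rises and 12 greatest falls (average log2 CPM of at least 3, named gene models, groups that do not overlap), up to 4 called members with the smallest p from each of 49 gene lists, any member of the NF-kB subunit, IkB, BAFF receptor, pro-survival, erythroid and sex-linked lists, and the 8 genes highest and 8 lowest in dbko replicate 1 over replicate 2 (average log2 CPM of at least 5). Python 3.11.15 with pandas 2.3.3, NumPy 2.4.6 and Matplotlib 3.10.9 made the tables and figures.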

Additional observations from a re-analysis of the deposited data

Results flagged for a closer look

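The genotype difference at 6h differed from that at 0h for 60 of the genes named, by the edgeR test of the difference itself (adjusted p under 0.05). The values below are the log2 difference of dbko from wt at 6h less that at 0h, and the 8 libraries come from 4 groups of 2. Among NF-kB genes, their inhibitors and receptor adaptors the value was -1.18 for Nfkb2, -0.82 for Rela, -2.07 for Nfkbid, -1.86 for Nfkbiz, -1.82 for Traf1, -1.09 for Birc2, -1.05 for Birc3 and -2.15 for Bcl2l1. Among genes of activation, chemokines and cytokine receptors the value was -3.0 for Ccl3, -3.33 for Ccl4, -3.67 for Il2ra, -1.78 for Cd86, -0.95 for Cd83, -0.89 for Icam1, -1.62 for Slamf7, -0.98 for Il2rg and -1.76 for Nr4a3. Among growth, uptake and hypoxia genes the value was -1.48 for Polr1b, -1.56 for Gnl3, -1.48 for Nolc1, -1.44 for Slc7a1, -2.14 for Tfrc, -2.25 for Ero1l, -1.32 for Slc16a1, -1.57 for Cdk6 and -1.63 for Gapdh. For other genes with a lower value at 6h it was -4.75 for Zbtb46, -2.71 for Cdk5r1, -1.58 for Pglyrp1, -1.37 for Xpo1, -1.22 for Fcer2a, -0.97 for Pus10, -0.85 for Bcl6, -0.66 for Pou2af1 and -0.65 for Rfx5. Among marginal zone markers it was 1.36 for Cd9, 2.05 for S1pr3, 0.95 for Plac8 and 2.20 for Myof. Among other receptor and surface genes it was 0.70 for S1pr4, 1.25 for Ccr9, 1.41 for Tnfrsf13b, 1.53 for Cd38 and 0.89 for Cd48. Among markers of macrophages and genes of the NRF2 response it was 2.34 for Spic, 3.45 for Lyz2, 0.49 for Mpeg1, 3.12 for Hmox1 and 0.72 for Keap1. For other genes with a higher value at 6h it was 0.75 for Casp9, 0.80 for Bcl11a, 0.87 for Plcg2, 0.90 for Map3k14, 1.22 for Traf5, 1.25 for Id2, 1.32 for Sox4, 1.63 for Dok3 and 2.04 for Mxd4. Further higher values were 2.44 for Ifi213 and 2.66 for Jun.

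Of these, 24 were not called with at least 1 of the 8 libraries left out, and the highest adjusted p then was as follows. It was 0.0512 for Il2ra without wt 0h replicate 2, 0.0987 for Nfkbid without wt 0h replicate 1, 0.189 for Gapdh without wt 0h replicate 1, 0.0769 for Pglyrp1 without wt 0h replicate 1 and 0.0505 for Xpo1 without wt 0h replicate 2. Next, it was 0.164 for Pus10 without wt 0h replicate 1, 0.154 for Cd83 without wt 6h replicate 2, 0.0755 for Icam1 without wt 6h replicate 2, 0.154 for Rela without wt 0h replicate 1 and 0.0983 for Pou2af1 without wt 0h replicate 1. The adjusted p was 0.0932 for Rfx5 without wt 6h replicate 1, 0.172 for Mpeg1 without wt 6h replicate 2, 0.135 for S1pr4 without wt 6h replicate 1, 0.0512 for Keap1 without wt 0h replicate 2 and 0.112 for Bcl11a without wt 6h replicate 1. The adjusted p was 0.0975 for Map3k14 without wt 0h replicate 1, 0.0564 for Plac8 without wt 6h replicate 1, 0.196 for Ccr9 without wt 0h replicate 2, 0.0709 for Id2 without wt 6h replicate 2 and 0.123 for Cd9 without wt 6h replicate 1. The adjusted p was 0.0571 for Myof without wt 6h replicate 2, 0.0583 for Spic without wt 6h replicate 2, 0.0552 for Ifi213 without wt 0h replicate 2 and 0.129 for Lyz2 without wt 6h replicate 2.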

How the results depend on the processing

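Size factors gave 3377 called genes for dbko against wt at 6h, the DESeq2 Wald test 3223, no filter 3976 and the replicate block 3505 (1992 higher, 1513 lower), beside 3370. Of the 3370 calls, 3280, 2990, 3045 and 3298 were kept in the same direction under these settings, but only 1063 (31.5%) with the compared groups alone. With the groups alone and the replicate block, 1967 (58.4%) were kept. In none of the alternatives run was any of the 3370 called the other way. The block gave 1857 genes for dbko against cko and 1792 for 6h minus 0h, and it ended no call of a gene named. With the compared groups alone, 1075 genes were called (509 higher, 566 lower), 190 for dbko against cko (142 and 48) and 650 for 6h minus 0h (275 and 375), from fewer samples behind the spread. With the groups alone and the replicate block, chosen after seeing the data, it was 2057 (1024 and 1033). Without a filter 912 genes were lower in dbko than in cko. Leaving out each library gave 1296 to 4210 genes for dbko against wt (668 to 2390 higher, 628 to 1820 lower), 559 to 3019 for dbko against cko (321 to 1819 higher, 238 to 1200 lower) and 595 to 2634 for 6h minus 0h (259 to 1312 higher, 318 to 1322 lower). Without dbko replicate 2 at both times, also chosen after seeing the data, 5645 genes were called against wt (3118 higher, 2527 lower), 4464 against cko (2442 and 2022) and 4054 for 6h minus 0h (2112 and 1942). Without dbko replicate 1 it was 3818 against wt (2078 and 1740). The cause of these shifts was not tested. For Pim2 the 6h minus 0h value was -0.01 and not called, 0.60 without dbko 6h replicate 1 (adjusted p = 0.0391) and -1.10 without dbko 6h replicate 2 (adjusted p = 0.00122). With 2 libraries a group and dbko libraries that differ this much, genes that missed the threshold are not shown to be alike between genotypes.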

Other observations

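Several gene groups moved little or not together. Of 8 tested immunoglobulin constant region genes 1 was lower, Ighg1, at 0.809 and 0.469 CPM in dbko and 4.12 and 3.91 CPM in wt (-2.63 ± 0.58, adjusted p = 0.00625), and 1 was higher, Ighm, with an adjusted p of 0.186, 0.122 and 0.11 with dbko replicate 2, wt replicate 1 or wt replicate 2 left out. Of 23 tested cholesterol synthesis genes 1 was higher, Ebp (adjusted p of 0.192, 0.118 and 0.131 with dbko replicate 1, wt replicate 1 or wt replicate 2 left out), and 1 lower, Srebf2 (0.192, 0.118 and 0.15 with dbko replicate 1, wt replicate 1 or wt replicate 2 left out). Of 40 oxidative phosphorylation genes 6 were higher, and 0 of them held with each library left out. Among 33 tested interferon-stimulated genes 7 were higher and 2 lower, of which 1 and 0 held with each library left out, with a list median of 0.71 in lane 7 and -0.02 in lane 8. Of 4 genes of the Y chromosome none had a count in any of the 4 libraries compared, and Xist stood at 1606 and 587 CPM in dbko and 1874 and 1429 CPM in wt. Of 14 genes often used as references 3 were higher (Actb and Gusb among them) and 1 lower (Gapdh), with a median of -0.08. None of those named here held with each library left out: the adjusted p was 0.073 for Actb without wt 6h replicate 2, 0.0729 for Gusb without wt 6h replicate 2 and 0.0572 for Gapdh without wt 6h replicate 2.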
